A study of Arabidopsis thaliana with 18 samples.

Results

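Of the 22746 probe sets of the Arabidopsis ATH1 array that were not controls, 68 had a signal at least 4-fold lower in both fenclorim and CMP than in acetone, at both 4 h and 24 h. A probe set is a group of short probes that stands for a transcript. The members were chosen from the measured values themselves: the mean log2 signal of each compound group was lower than that of acetone at the same time by 2 or more in all 4 cases, and both acetone means were 6 or more, a signal of 64. A probe set was not taken if its gene symbol began with EXP, XTH, TBL, GH9, TUB, TUA, IQD, GSTU or UGT or was WAG2, AT1G29660 or AT4G28780. In all, 75 probe sets met the thresholds, and 7 of them (EXPA8, XTH16, XTH33, GH9C2, TBL45, WAG2 and AT1G29660) were left out by symbol. Of the 68 members, 24 were paired with 1 gene by the array annotation, 1 was paired with several genes and 43 were not listed there and stay unnamed here. The differences from acetone describe how the members were chosen, so they are given with no test.

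The RNA came from root cultures of wild-type Col-0, kept without light at 25 °C and treated at an age of 14 days, in the B5 medium of Gamborg. There were 6 groups of 3 arrays: acetone for 4 h, fenclorim for 4 h, CMP for 4 h, and the same 3 treatments for 24 h. Fenclorim, a dichlorinated phenylpyrimidine, is a herbicide safener, which means that it makes a crop tolerate a herbicide better. What CMP stands for and the doses are not in the labels, acetone serves as the control for both compounds, and all groups were wild type. Replicates are numbered but not described as separate cultures, so a p-value here reflects only how much these arrays differ, possibly for technical reasons, and the number of arrays limits the precision. In RNA from whole cultures, fewer cells of a type and less RNA per cell cannot be told apart.

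Growing root cells are held in a primary wall of cellulose and hemicellulose in a gel of pectin, a polysaccharide rich in galacturonic acid. Pectate lyases and polygalacturonases cut the pectin backbone, pectin methylesterases remove methyl groups from it, and inhibitor proteins hold those esterases back. Many other secreted proteins, among them GDSL esterases, proteases and membrane-anchored glycoproteins such as SKU5, act in the wall or at its inner face, and genes of these families are often active in elongating roots.

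All arrays had the same trimmed mean of 100.01, but the median signal was 35.2 to 40.8 on the 6 acetone arrays and 27.1 to 35.0 on the 12 compound arrays. The log2 signal of the 3′ probe set of the control transcript GAPDH exceeded that of its 5′ probe set by 0.88 to 1.11 on the acetone arrays and by -0.10 to 0.76 on the compound arrays, with no overlap, and the part of this difference in the values below was not tested. The same measure for actin overlapped, at 3.27 to 4.28 against 3.11 to 4.28. Of the root markers, only PYK10, a beta-glucosidase of roots, was named on the array, with group mean signals of 2564 to 4554. Of the root hair markers, EXPA7 and EXPA18 were named, and both were lower in the compound groups. EXPA7 gave 10.2 in acetone, 0.79 in fenclorim and 2.23 in CMP at 4 h and 11.3, 6.02 and 7.04 at 24 h. EXPA18 gave 31.2, 9.88 and 9.35 at 4 h and 39.5, 5.69 and 11.9 at 24 h in the same order. Every EXPA7 mean, acetone included, was below the 40th percentile of signal of every array. So was every EXPA18 mean in the compound groups, so these differences rest on low signals. Rubisco activase, RCA, the only named marker of photosynthetic cells, was also high although the cultures were grown in the dark, at 2124 in acetone, 1034 in fenclorim and 1422 in CMP at 4 h and 2467, 1701 and 479 at 24 h. These are geometric means of 3 arrays, and the part of these markers in the values below was not tested. The median log2 signal of the 68 members was 7.39 to 7.62 on the acetone arrays and 3.90 to 4.99 on the compound arrays. Among the compound arrays, fenclorim 4 h replicate 3 gave the highest value of its group for 51 of the 68 members, fenclorim 24 h replicate 1 for 40, and fenclorim 24 h replicate 2 gave the lowest for 43. In acetone at 24 h, replicate 3 was highest for 55.

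**Figure D1:**
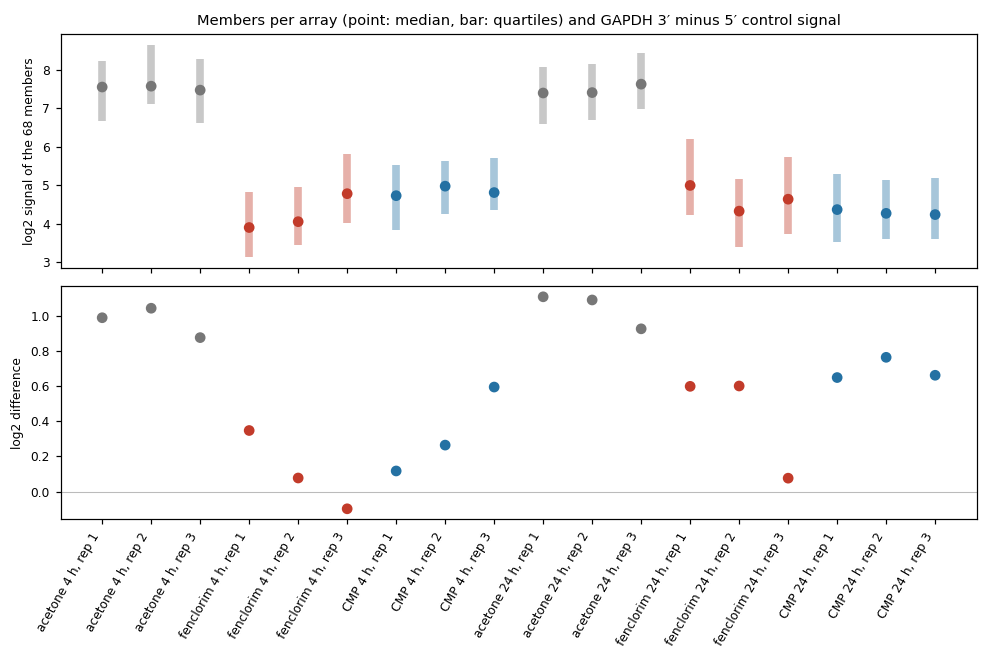
Each column is 1 of the 18 arrays. The upper panel gives the median (point) and the quartiles (bar ends) of the log2 signals of the 68 members, and the lower panel the log2 difference between the 3′ and the 5′ probe sets of GAPDH; the acetone arrays have member medians of 7.39 to 7.62, the compound arrays 3.90 to 4.99, and neither measure overlaps between them.

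The members ranged from mean log2 acetone signals near the lower limit of 6 to 10.56 at 4 h and 10.23 at 24 h, with medians of 7.49 and 7.40. The median difference from acetone was -3.25 with fenclorim at 4 h, -2.57 with CMP at 4 h, -2.76 with fenclorim at 24 h and -3.04 with CMP at 24 h. Over all 15261 tested probe sets the same medians were -0.23, -0.25, -0.24 and -0.13. The rule itself sets the members' medians below -2, so the contrast with all probe sets is a description only. Of all tested probe sets, 3.23% lay at or below -2 with fenclorim at 4 h, 2.36% with CMP at 4 h, 4.12% with fenclorim at 24 h and 4.14% with CMP at 24 h, and 0.826% did so in all 4 cases at any acetone level. Every fenclorim array was below every acetone array for 68 of 68 members at 4 h (33.1% of all tested probe sets) and for 66 of 68 at 24 h (30.5%). The same held for CMP for 68 of 68 at 4 h (32.0%) and 68 of 68 at 24 h (37.6%). The rule used these contrasts, so nothing is read from these counts. The 2 members with an overlap in fenclorim at 24 h were 254820_s_at, which is paired with several genes, and the unlisted 267457_at.

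Signals after treatment were often low. With the 40th percentile of an array as a mark of low signal, 30 members had a mean below it in fenclorim at 4 h, 17 in CMP at 4 h, 23 in fenclorim at 24 h and 33 in CMP at 24 h, against 0 and 0 in acetone. The differences of these members depend on small signals. The lowest mean of the 4 differences belongs to the unlisted 259790_s_at, which had mean log2 signals of 6.58 and 6.08 in acetone at 4 h and 24 h and differences of -6.07, -4.82, -4.66 and -6.68 with fenclorim at 4 h, CMP at 4 h, fenclorim at 24 h and CMP at 24 h. Just inside the threshold, with a smallest difference of -2.03 each, were AT5G50335 and an unlisted probe set with CMP at 4 h and another unlisted one with CMP at 24 h. The nearest probe sets outside it had smallest differences of -1.998 and -1.99 with CMP at 24 h and -1.99 with CMP at 4 h. When every array was centred on its median, the median of all tested probe sets rose to 0.11, 0.04, 0.25 and 0.14 in the 4 comparisons, in the order used above, and 25 probe sets met the rule, all 25 of them members. All 68 members still lay at or below -1 in every one of the 4 comparisons under that scaling, under quantile normalization and with 16 added to each signal.

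The named members fall into pectin genes, GDSL esterases, proteases, other cell surface proteins, regulators, and enzymes or transporters, with 3 to which no role is given. Of the 6 pectin genes, 3 are pectate lyases, which cleave pectin that carries few methyl groups. AT5G63180 gave signals of 474, 414 and 247 in the 3 acetone arrays at 4 h, 24.5, 25.5 and 50.5 in fenclorim and 63.5, 67.9 and 117 in CMP. At 24 h they were 409, 489 and 586 in acetone, 70.5, 40.8 and 41.1 in fenclorim and 33.5, 35.5 and 46.9 in CMP. The highest fenclorim array at 4 h was below the lowest CMP array, while at 24 h the ranges of the compounds overlapped. As a ratio of geometric means, the signal of AT5G63180 was lower than in acetone by 11.5-fold with fenclorim and 4.58-fold with CMP at 4 h, and by 9.97-fold and 12.8-fold at 24 h.

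The pectate lyase gene AT1G04680 had the highest acetone level of the pectin genes, 492, 591 and 554 at 4 h and 508, 507 and 525 at 24 h. Its signals were 54.3, 60.1 and 161 in fenclorim and 99.9, 139 and 136 in CMP at 4 h, and 126, 22.9 and 109.8 in fenclorim and 68.1, 56.8 and 64.3 in CMP at 24 h. All compound arrays were below all acetone arrays, and the fenclorim arrays spread widely, with replicate 3 high at 4 h and replicate 2 low at 24 h. The pectate lyase gene AT3G07010 gave 238, 266 and 214 in acetone, 42.2, 36.1 and 55.4 in fenclorim and 26.9, 48.1 and 44.0 in CMP at 4 h. After 24 h it gave 194, 199.7 and 239 in acetone, 29.8, 12.8 and 37.0 in fenclorim and 32.9, 35.3 and 28.0 in CMP. The ranges of the compounds overlapped at both times for AT3G07010, with log2 differences from acetone between -2.44 (fenclorim at 4 h) and -3.12 (fenclorim at 24 h).

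AT3G06770 encodes a protein of the polygalacturonase-like, pectin lyase-fold family. At 4 h it gave 307, 296 and 214 in acetone, 22.4, 20.5 and 41.2 in fenclorim and 52.3, 58.8 and 52.6 in CMP. At 24 h its signals were 216, 266 and 309 in acetone, 79.2, 40.3 and 40.5 in fenclorim and 34.2, 26.7 and 28.3 in CMP. The order of the compounds turned: every CMP array was above every fenclorim array at 4 h and below every fenclorim array at 24 h. AT3G62110, of the same family, was lower by 4.46-fold to 6.44-fold in the 4 comparisons. AT5G62340, of the pectin methylesterase inhibitor family, varied most of the pectin genes among acetone arrays, with 30.4, 66.3 and 139 at 4 h and 177, 279 and 52.9 at 24 h. Its compound arrays lay between 3.37 and 23.7 at 4 h and between 3.56 and 38.9 at 24 h, below the acetone arrays of the same time.

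**Figure D2:**
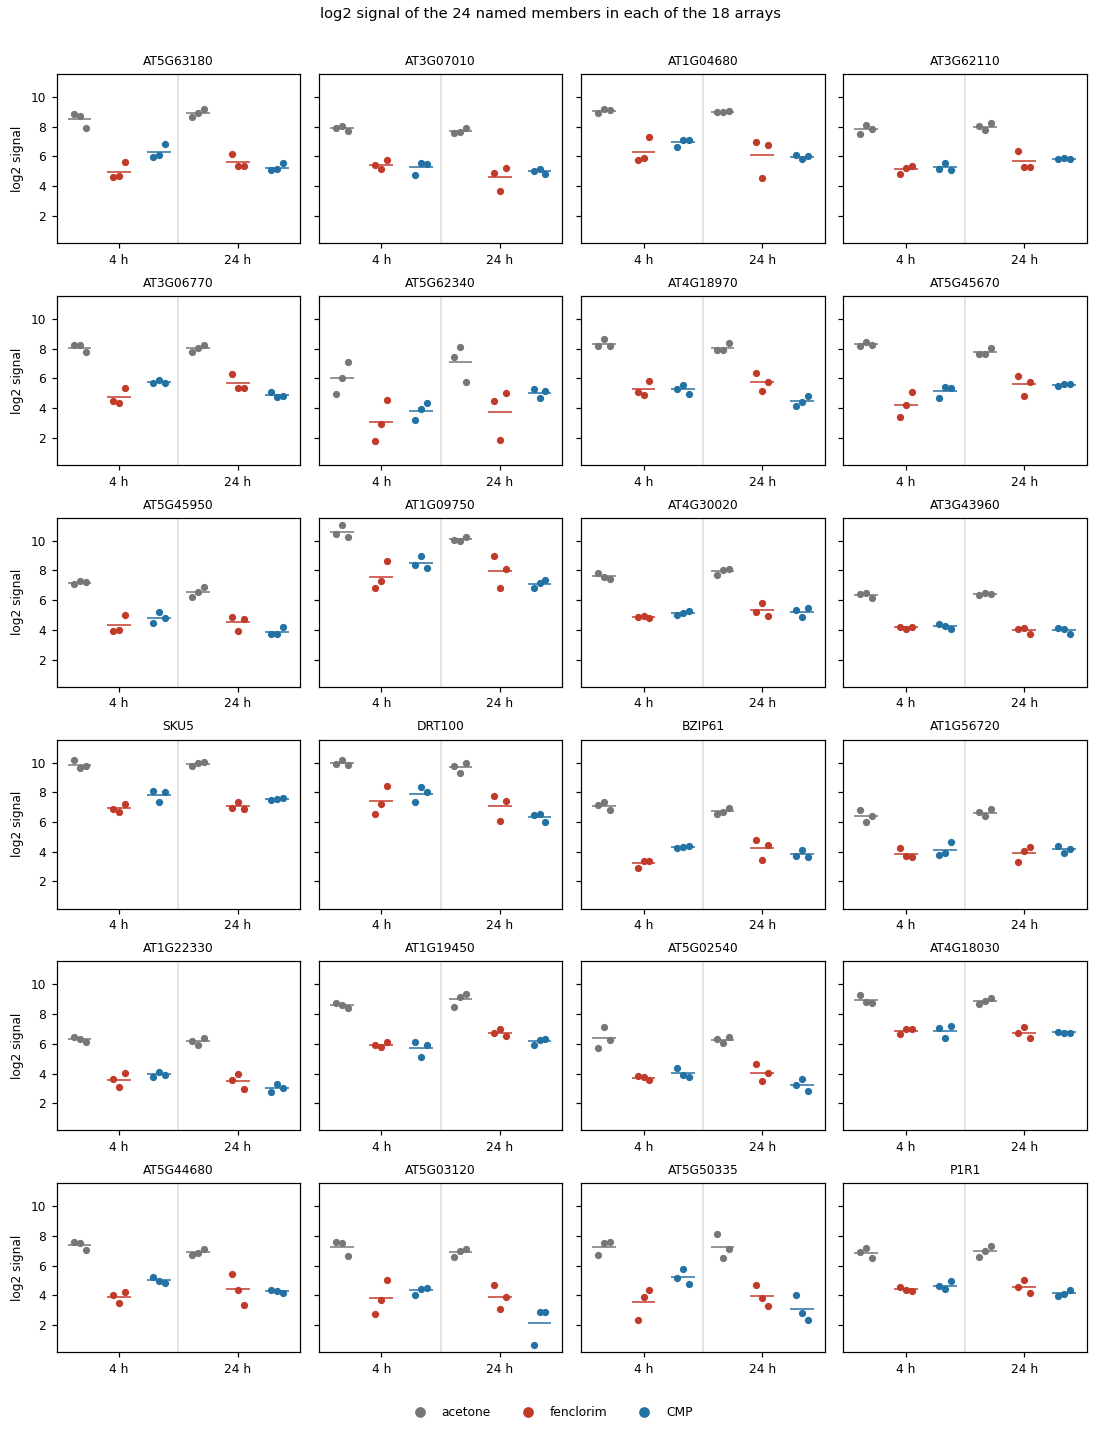
Each panel plots the log2 signal of 1 of the 24 named members in all 18 arrays, as points by treatment at 4 h (left) and 24 h (right). At each time the compound arrays of every panel lie below the acetone arrays, and the compounds differ in order and spacing from gene to gene.

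The other pectate lyases of the genome were looked up in a list of 26 loci drawn up after the members had been seen. On the array 23 were named, and 12 were tested, the 3 members and 9 others. Of those 9, 7 were lower than acetone in limma's test with fenclorim at 4 h (25.0% of all tested probe sets were lower), 7 with CMP at 4 h (23.3%), 6 with fenclorim at 24 h (27.7%) and 5 with CMP at 24 h (25.7%). None of the 9 was higher in any of these comparisons, where 14.4%, 13.8%, 14.2% and 17.3% of all tested probe sets were higher. Their median differences were -0.99, -1.11, -1.35 and -0.87 in that order. These counts used the deposited scaling only, on which the compound arrays had lower medians. Small differences, such as -0.46 for AT3G55140 with fenclorim at 4 h, may depend on it. The filter could be passed through the acetone arrays alone, which favours lower values. Of the 9, AT5G48900 fell by the most at 24 h, with log2 differences of -3.52 ± 0.22 (SE, adjusted p = 1.09e-08) in fenclorim and -3.67 ± 0.22 (adjusted p = 6.28e-09) in CMP, and it missed the member rule with CMP at 4 h, at -1.98 ± 0.22 (adjusted p = 2.67e-06). AT1G67750 missed it at the same place, with -1.99 ± 0.67 (adjusted p = 0.0283). Another, AT5G04310, fell with fenclorim at 24 h, by 1.35 ± 0.27 on the log2 scale (adjusted p = 0.00118), and had values of 0.15, 0.20 and 0.29 with fenclorim at 4 h, CMP at 4 h and CMP at 24 h.

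**Figure D3:**
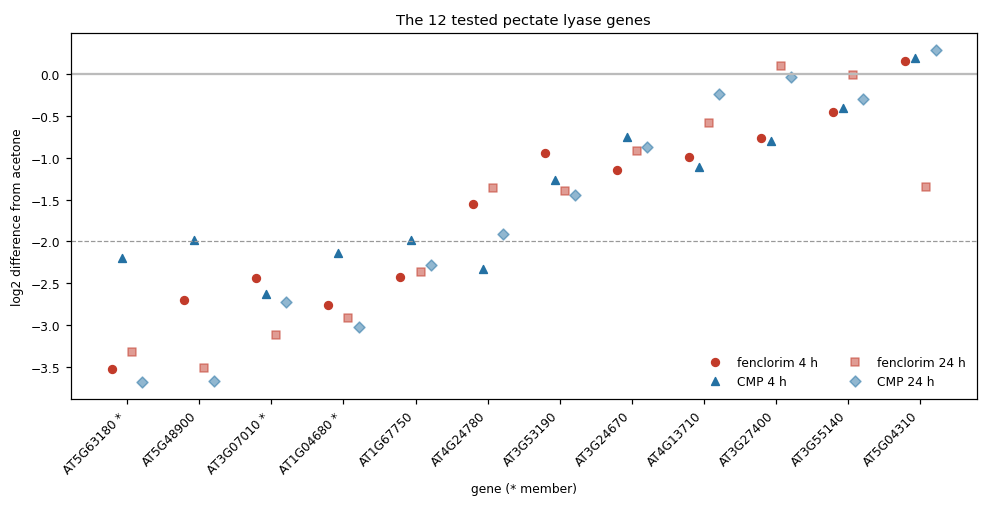
Points give the log2 difference from acetone of the 12 tested pectate lyase genes in each compound and time, with members marked by an asterisk and the threshold of -2 as a dashed line. The 3 members lie below the line in all 4 comparisons by the rule, AT5G48900 falls to -3.52 and -3.67 at 24 h, and AT5G04310 is above 0 in 3 of the 4.

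A further 3 members belong to the GDSL esterase/lipase family of secreted hydrolases. AT4G18970 gave 290.0, 397 and 285 in acetone, 33.2, 29.2 and 56.7 in fenclorim and 38.2, 46.4 and 31.0 in CMP at 4 h. At 24 h it gave 235, 245 and 328 in acetone, 82.6, 35.5 and 54.9 in fenclorim and 17.3, 21.5 and 27.6 in CMP. The compounds overlapped at 4 h, with a signal 8.42-fold below acetone in both, and did not overlap at 24 h, where the signal was 4.89-fold lower with fenclorim and 12.3-fold lower with CMP.

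AT5G45670 showed the largest difference of any named member at 4 h, with 294, 355 and 299 in acetone, 10.6, 18.3 and 33.8 in fenclorim and 25.2, 41.7 and 40.9 in CMP. The corresponding values at 24 h were 196, 203 and 267 in acetone, 71.9, 27.9 and 55.0 in fenclorim and 44.9, 49.4 and 49.5 in CMP. The difference with fenclorim was -4.07 at 4 h and -2.20 at 24 h, and with CMP -3.17 and -2.20. Acetone itself was lower at 24 h for this gene, at a mean of 222 ± 39.0 (SD, n = 3) against 316 ± 33.6, a difference that was not called. AT5G45950 lay 4.17-fold to 7.22-fold below acetone.

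Among the proteases, AT1G09750, an aspartyl protease of the cell exterior, was the named member with the highest acetone signal. It gave 1378, 2092 and 1193 in acetone at 4 h, 112, 153 and 392 in fenclorim and 331, 509 and 289 in CMP. At 24 h it gave 1083, 1009 and 1199 in acetone, 511, 113 and 277 in fenclorim and 113, 141 and 165 in CMP. On the log2 scale the fenclorim arrays were the most scattered here, and they overlapped the CMP arrays at both times. The subtilase AT4G30020 was 5.52-fold to 6.66-fold lower, and the papain-like cysteine protease AT3G43960 4.28-fold to 5.47-fold lower. AT3G43960 was among the steadiest members, with 82.4, 87.5 and 86.3 in acetone, 16.8, 17.7 and 13.0 in fenclorim and 17.4, 16.4 and 13.3 in CMP at 24 h.

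SKU5 encodes a membrane-anchored glycoprotein related to multicopper oxidases that acts in directional root growth. Its signals at 4 h were 1134, 786 and 860.4 in acetone, 117, 103 and 146 in fenclorim and 266, 159.9 and 259 in CMP, and at 24 h 888, 984 and 1027 in acetone, 122, 163 and 119 in fenclorim and 182, 185 and 197 in CMP. Every CMP array was above every fenclorim array at both times, and the signal was 7.60-fold and 7.26-fold below acetone with fenclorim at 4 h and 24 h and 4.12-fold and 5.14-fold below it with CMP. In limma's test between the compounds, given below, SKU5 was called at 4 h and not at 24 h. DRT100, a leucine-rich repeat protein, gave 939, 1132 and 919.7 in acetone at 4 h, 93.6, 148 and 348 in fenclorim and 159.9, 327 and 260.4 in CMP. By 24 h it stood at 878, 628 and 981 in acetone, 217, 67.6 and 171 in fenclorim and 89.2, 93.2 and 62.8 in CMP. For DRT100 the compounds overlapped at both times, and the CMP arrays at 24 h were all below those at 4 h.

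A group of 3 members acts in gene regulation or signalling. BZIP61, a basic leucine zipper transcription factor, gave 142, 164 and 112 in acetone at 4 h, 7.51, 10.4 and 10.2 in fenclorim and 19.2, 19.7 and 20.4 in CMP. At 24 h the values were 91.3, 104 and 125 in acetone, 27.2, 10.8 and 22.2 in fenclorim and 12.8, 17.4 and 12.5 in CMP. The CMP arrays were all above the fenclorim arrays at 4 h, and the compounds overlapped at 24 h. The protein kinase gene AT1G56720 lay 4.93-fold to 6.69-fold below acetone, and the RNA-binding protein gene AT1G22330 5.13-fold to 8.72-fold. A further probe set of AT1G22330 had differences of -2.94, -2.62, -2.87 and -2.49 with fenclorim at 4 h, CMP at 4 h, fenclorim at 24 h and CMP at 24 h, and was no member because its acetone mean at 24 h was 5.65.

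The remaining enzymes and transporters comprised AT1G19450, a sugar transporter of the ERD6-like family, AT4G18030, a predicted methyltransferase, AT5G44680, of the DNA glycosylase superfamily, and AT5G02540, of the NAD(P)-binding Rossmann-fold family. AT1G19450 gave 433, 399 and 342 in acetone, 59.7, 54.6 and 68.3 in fenclorim and 69.5, 34.4 and 60.8 in CMP at 4 h. AT4G18030 had the smallest mean difference of the named members, -2.10, and the most even one, 4.26-fold, 4.25-fold, 4.36-fold and 4.32-fold lower with fenclorim at 4 h, CMP at 4 h, fenclorim at 24 h and CMP at 24 h. AT5G44680 was 11.2-fold lower with fenclorim at 4 h and 5.21-fold to 6.07-fold lower in the other 3 comparisons, and AT5G02540 4.70-fold to 8.33-fold lower.

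No role is given here to AT5G03120, AT5G50335 and P1R1. AT5G03120 gave 189, 185 and 98.7 in acetone, 6.69, 13.0 and 33.0 in fenclorim and 16.4, 21.7 and 22.9 in CMP at 4 h. At 24 h it gave 97.8, 124 and 141 in acetone, 26.4, 8.40 and 14.8 in fenclorim and 1.61, 7.46 and 7.19 in CMP, so that every CMP array at 24 h was below every fenclorim array and below every CMP array at 4 h. AT5G50335 gave 107, 183 and 190.1 in acetone, 4.97, 14.9 and 20.4 in fenclorim and 36.5, 54.9 and 27.1 in CMP at 4 h. At 24 h the values were 279.6, 91.1 and 141 in acetone, 25.6, 13.9 and 9.96 in fenclorim and 16.1, 7.16 and 5.01 in CMP. The acetone arrays of AT5G50335 at 24 h spread from 91.1 to 279.6, its compound arrays at 24 h overlapped, and its CMP arrays at 4 h were all above the fenclorim arrays. P1R1 was 4.67-fold to 7.02-fold lower in the 4 comparisons.

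The rule did not use the difference between the compounds, although it bounds both of them, so this difference was tested with limma over all 15261 tested probe sets, with 3 arrays a group and a call at an adjusted p under 0.05. The times are matched, but without doses in the labels it is not known whether the doses are. At 4 h, 9 of the 68 members were called (13.2%, against 7.33% of all tested probe sets). Of these, 8 were higher in CMP than in fenclorim (3.56% of all tested probe sets were higher) and 1 was lower (3.77% lower). The median difference of the members was 0.51 and that of all tested probe sets 0.02, and 59 of 68 group means were lower in fenclorim. The named genes called were AT5G63180 with 1.33 ± 0.33 (SE, adjusted p = 0.0180), BZIP61 with 1.09 ± 0.29 (SE, adjusted p = 0.0297), AT3G06770 with 1.03 ± 0.28 (SE, adjusted p = 0.0330) and SKU5 with 0.88 ± 0.20 (SE, adjusted p = 0.0123), all higher in CMP. The arrays of these genes did not overlap between the compounds, but these are the arrays that gave the calls, so this adds no support. AT5G50335 did not overlap at 4 h either and was not called. The pectate lyase genes AT1G04680 and AT3G07010 were not called.

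The count moved with single arrays. Without fenclorim 4 h replicate 3, 19 members were called at 4 h. Leaving out fenclorim 4 h replicate 1 left 4, and leaving out fenclorim 4 h replicate 2, CMP 4 h replicate 1 or CMP 4 h replicate 3 left 2 each. With only the arrays of the 2 groups in the fit, limma called 0 members, with 16 at an unadjusted p under 0.05 (21 in the fit over all arrays). The calls of SKU5 and AT5G63180 passed in 23 of 27 alternatives each, and those of BZIP61 and AT3G06770 in 17 of 27 each. Many alternatives left out an array outside the 2 groups compared. Among the 4 h arrays, SKU5 lost the call without fenclorim replicate 2 or CMP replicate 1 or 3. AT5G63180 lost it without fenclorim replicate 1 or 2 or CMP replicate 3. BZIP61 and AT3G06770 each lost it without fenclorim replicate 1 or 2 or any single CMP array at 4 h. BZIP61 and AT3G06770 both lost the call with 16 added to each signal, with quantile normalization and with median centring. With the offset BZIP61 gave 0.50. Its mean log2 signal in fenclorim at 4 h was 3.21, below the 40th percentile of every array.

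At 24 h, 9 members were again called, 13.2% against 30.9% of all tested probe sets, and this lower share was not tested. Higher in CMP were 2 (17.2% of all tested probe sets) and lower 7 (13.7%), and the median difference was -0.17 against 0.09. With every array centred on its median 0 were higher and 12 lower, with a member median of -0.39, and with quantile normalization 0 and 10, with -0.37. AT4G18970, the GDSL gene, was lower in CMP, with -1.33 ± 0.30 (SE, adjusted p = 0.00425), and this call passed in all 27 alternatives, with adjusted p-values from 0.000113 to 0.0350. AT5G03120 had -1.75 ± 0.59 (SE, adjusted p = 0.0344) and AT3G06770 -0.77 ± 0.28 (SE, adjusted p = 0.0462), which passed in 22 and 10 of 27 alternatives. The value of AT5G03120 was -1.02 without CMP 24 h replicate 1, and that of AT3G06770 was -0.45 without fenclorim 24 h replicate 1. AT5G03120 lost the call without CMP 24 h replicate 1 or fenclorim 24 h replicate 1 or 3. AT3G06770 lost it, among others, without any single CMP array at 24 h or fenclorim 24 h replicate 1. With 16 added to each signal AT5G03120 gave -0.58, and neither gene was called. At 24 h the mean log2 signals of AT5G03120 were 3.90 in fenclorim and 2.14 in CMP. Both were below the 40th percentile of every array, so this difference compares low signals. Without fenclorim 24 h replicate 2, 21 members were called. The count was 2 without fenclorim 24 h replicate 1, 2 without CMP 24 h replicate 1 and 5 without CMP 24 h replicate 2, and 2 with only the arrays compared.

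For the other named members the interval of the difference says how far apart the compounds could be. At 4 h, 20 named members were not called, and for 10 of them the 95% interval lay within 1 on the log2 scale of 0. At 24 h, 21 were not called, and 9 had such an interval. Over all uncalled named members the bounds reached from -0.98 to 2.89 at 4 h and from -2.04 to 3.01 at 24 h. The genes given next are among those with an interval within 1 of 0 at both times. AT4G18030 had a difference of 0.00 (95% interval -0.47 to 0.48) at 4 h and 0.01 (95% interval -0.46 to 0.49) at 24 h. AT3G43960 had 0.08 (95% interval -0.33 to 0.49) and -0.01 (95% interval -0.42 to 0.40). For AT3G62110 it was 0.13 (95% interval -0.41 to 0.68) and 0.18 (95% interval -0.36 to 0.73).

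**Figure D4:**
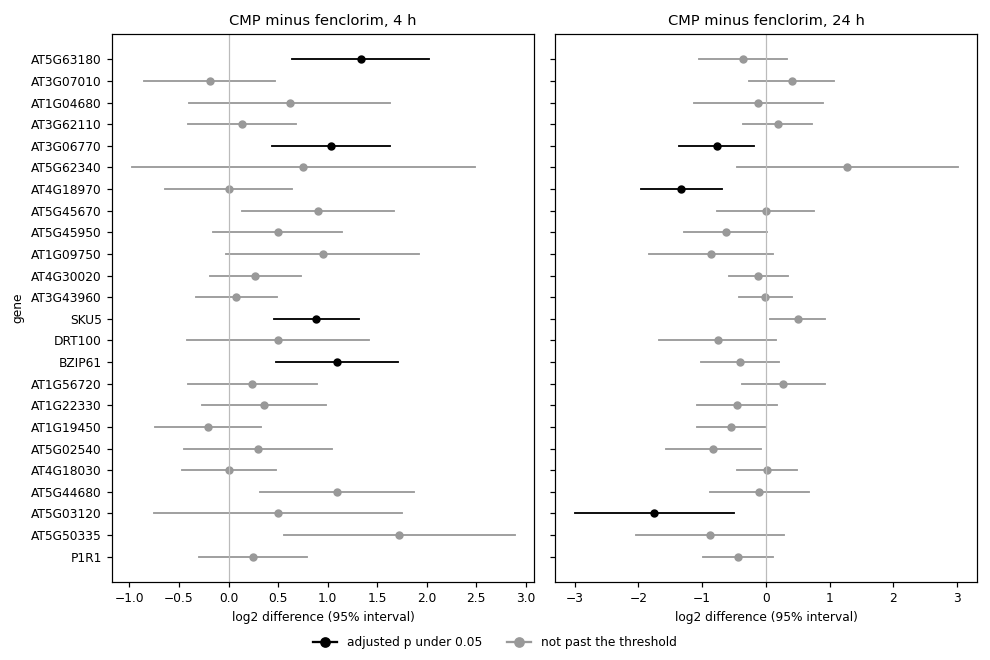
For each of the 24 named members the point gives CMP minus fenclorim on the log2 scale and the bar its 95% interval, at 4 h (left) and at 24 h (right). At 4 h the called genes lie to the right of 0, with AT5G63180 at 1.33, and at 24 h they lie to the left, with AT5G03120 at -1.75 and AT4G18970 at -1.33.

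In acetone itself no member passed limma's test between 24 h and 4 h, with 1 at an unadjusted p under 0.05, and 0% of all tested probe sets passed. The median difference of the members in acetone was -0.11.

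In fenclorim, 10 members were called between the times, 14.7% against 9.47% of all tested probe sets, with 7 higher at 24 h (4.57% of all tested probe sets) and 3 lower (4.89%). AT5G45670 rose from 4 h to 24 h by 1.36 ± 0.36 (SE, adjusted p = 0.0267), BZIP61 by 1.01 ± 0.29 (SE, adjusted p = 0.0380) and AT3G06770 by 0.93 ± 0.28 (SE, adjusted p = 0.0479) on the log2 scale, and all 3 stayed below acetone at 24 h by the rule. The call of AT5G45670 passed in 22 of 27 alternatives, that of BZIP61 in 17 and that of AT3G06770 in 6, and without fenclorim 24 h replicate 1 the value of AT3G06770 was 0.60. AT5G45670 and BZIP61 both lost the call without fenclorim 4 h replicate 1 or 2 or fenclorim 24 h replicate 1 or 3. With 16 added to each signal AT5G45670 gave 0.86, still called, and BZIP61 gave 0.48, not called. AT3G06770 was not called with that offset. The count was 19 without fenclorim 4 h replicate 3, 4 without fenclorim 4 h replicate 1, 2 without fenclorim 4 h replicate 2 and 3 without fenclorim 24 h replicate 1. With only the 2 groups in the fit it was 0, with 11 at an unadjusted p under 0.05.

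In CMP the called members were all lower at 24 h, 9 of 68 (13.2%, against 11.9% of all tested probe sets called, 5.34% higher and 6.51% lower). AT5G50335 fell by 2.19 ± 0.55 (SE, adjusted p = 0.0154), AT5G03120 by 2.19 ± 0.59 (SE, adjusted p = 0.0227), DRT100 by 1.57 ± 0.44 (SE, adjusted p = 0.0261) and AT5G63180 by 1.06 ± 0.33 (SE, adjusted p = 0.0441) on the log2 scale. The unlisted 246919_at, the member with the highest acetone signal, had -1.85 ± 0.18 (SE, adjusted p = 1.32e-05). The calls of AT5G50335, AT5G03120 and DRT100 passed in 24, 22 and 22 of 27 alternatives and that of AT5G63180 in 13. Many alternatives left out an array outside the 2 groups compared. DRT100 lost the call without CMP 4 h replicate 2 or 3 or any single CMP array at 24 h. AT5G03120 lost it without any single CMP array at 4 h or CMP 24 h replicate 1, and AT5G63180 without any single CMP array. AT5G50335 lost it without CMP 4 h replicate 2 or CMP 24 h replicate 2 or 3. With 16 added to each signal AT5G50335 gave -1.12, still called, and AT5G03120 gave -0.77, not called. The call of AT5G63180 was also lost with that offset. The count ranged from 3, without CMP 24 h replicate 3, to 17, without fenclorim 24 h replicate 2. It was 15 without fenclorim 4 h replicate 3, 5 without CMP 4 h replicate 2, and 4 each without CMP 4 h replicate 1 or 3 or CMP 24 h replicate 1 or 2, and with only the 2 groups in the fit it was 21.

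The difference from acetone itself was compared between the times. For fenclorim no member was called by limma (2.75% of all tested probe sets were, 1.00% higher and 1.74% lower), with 12 at an unadjusted p under 0.05. The count was 5 without fenclorim 4 h replicate 3, 7 without fenclorim 24 h replicate 2 and 1 without fenclorim 24 h replicate 3. For CMP 2 were called, both lower, 2.94% against 3.05% of all tested probe sets (0.839% higher and 2.21% lower), the unlisted 246919_at with -1.55 ± 0.25 (SE, adjusted p = 0.00419) and 264157_at with -2.09 ± 0.50 (SE, adjusted p = 0.0315), the latter lost without any one of 11 arrays. The CMP count was 1 without any single acetone array, any single CMP array at 24 h, or CMP 4 h replicate 1 or 2, and 9 with only the groups compared. In group means, 45 members had the larger difference at 4 h with fenclorim and 53 had it at 24 h with CMP, which is a description of the values that chose them.

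The change of CMP minus fenclorim from 4 h to 24 h was called for 8 members (11.8%, against 4.91% of all tested probe sets), and all 8 were lower (3.09% of all tested probe sets were lower and 1.82% higher). The named ones were AT3G06770 with -1.81 ± 0.40 (SE, adjusted p = 0.0189), AT5G63180 with -1.69 ± 0.46 (SE, adjusted p = 0.0444) and BZIP61 with -1.50 ± 0.41 (SE, adjusted p = 0.0458). Acetone cancels in this comparison, which uses the same compound arrays as those above and is not independent of them. The count was 24 without fenclorim 24 h replicate 2 and 21 without fenclorim 4 h replicate 3, and it was 1 without fenclorim 4 h replicate 1, fenclorim 24 h replicate 1 or CMP 24 h replicate 1. It was 2 without fenclorim 4 h replicate 2, CMP 4 h replicate 2 or CMP 24 h replicate 3, and 3 without CMP 4 h replicate 1. It was 4 without CMP 4 h replicate 3, CMP 24 h replicate 2 or acetone 24 h replicate 2, and 5 without acetone 4 h replicate 2 or acetone 24 h replicate 1 or 3. With only the compound arrays in the fit it was 0, with 20 at an unadjusted p under 0.05.

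**Figure D5:**
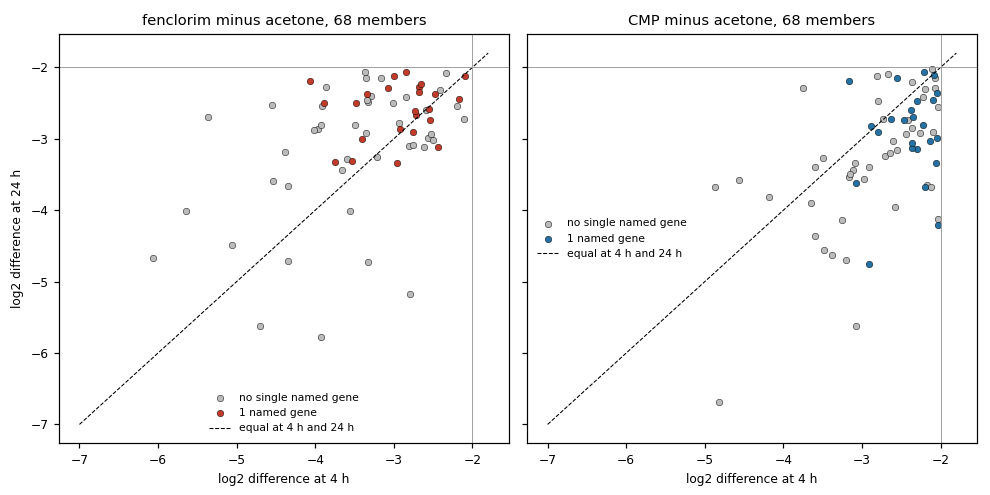
Each point is 1 of the 68 members, placed by its log2 difference from acetone at 4 h (x axis) and at 24 h (y axis), for fenclorim (left) and CMP (right). By the rule all points lie at or below -2 on both axes; 45 members have the larger difference at 4 h with fenclorim, and 53 have it at 24 h with CMP.

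In all, 23 members had a call in at least 1 of the 8 comparisons that the rule did not use (40.8% of all tested probe sets had one), among them 9 of the 24 named genes, and 45 had none. Of the unlisted members called between the compounds at 4 h, 261480_at had the largest value, 2.52 ± 0.55 (SE, adjusted p = 0.00879), which was 1.53 without fenclorim 4 h replicate 3, and 263318_at was the only one lower in CMP, with -2.68 ± 0.77 (SE, adjusted p = 0.0432), a call that was lost without any one of 12 arrays. The genes next to the named members in the RefSeq gene order of assembly TAIR10.1 were looked at too: of 48 neighbours, 15 were tested. Of these 15, 0 were members and 0 were at or below -2 in any of the 4 comparisons, and their median differences were -0.34, -0.46, -0.40 and -0.15. Among neighbours too dim to be tested, AT5G62330 and AT5G57770 were at or below -2 in 3 comparisons each and AT5G45960 in 2.

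Of 15 gene lists matched by symbol, only the list of transcription factors held a member, BZIP61. Most named members carry only a locus code, which the symbol patterns cannot match, and some lists matched no gene on the array. WAG2, of the auxin list, met the thresholds but was left out by symbol. Nothing is read from the lists about which families the members belong to. Among the 7 tested genes of cellulose, callose and glucan synthesis, 4 were lower in fenclorim (25.0% of all tested probe sets) and 4 in CMP (23.3%) at 4 h, and 5 in fenclorim (27.7%) and 5 in CMP (25.7%) at 24 h. In that order 1, 0, 1 and 1 were higher, against 14.4%, 13.8%, 14.2% and 17.3% of all tested probe sets. COB, a membrane-anchored protein needed for oriented cellulose deposition, fell at 24 h by 1.67 ± 0.17 with CMP (adjusted p = 1.28e-06) and by 0.94 ± 0.17 with fenclorim (adjusted p = 0.000550). CSLC5, of the family that makes the xyloglucan backbone, was lower in all 4 comparisons, with -2.37 ± 0.19 (adjusted p = 1.07e-07) in CMP at 24 h. THE1, a receptor kinase that monitors the wall, was also lower in all 4, with -2.40 ± 0.18 in fenclorim at 4 h (adjusted p = 5.03e-08) and -1.85 ± 0.18 in CMP (adjusted p = 8.32e-07). The related FER had -0.23 ± 0.14 and -0.19 ± 0.14 at 4 h with fenclorim and CMP (adjusted p = 0.202 and 0.304). FER was lower at 24 h on the deposited scaling, with -0.50 ± 0.14 and -0.54 ± 0.14 (adjusted p = 0.00984 and 0.00453). At 24 h the median of all tested probe sets was -0.24 and -0.13 there, and 0.25 and 0.14 with median centring. The tests of list genes against acetone were not repeated on another scaling. Differences as small as those of FER may depend on it. Many genes of these families are not named in the annotation used here.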

How the data were processed

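Transcripts were measured on Affymetrix ATH1 arrays, 1 sample per array, with 3 arrays in each of 6 groups taken from the labels. The deposited intensity values are linear signals, 1 per probe set, which the authors made with MAS5 in GCOS per the submitters' processing notes; the version is not given in the sources used here. MAS5 subtracts background, so low signals are uncertain and give large, unsteady log2 differences. Signals were used on the deposited scaling and taken to log2. Genes were named from the platform annotation, in which 13513 of the 22746 probe sets that were not controls are paired with 1 gene, 503 with several and 8730 are not listed. All 24 named members matched a locus in RefSeq assembly TAIR10.1. No sequence was analysed here.

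The 15261 probe sets above the 40th percentile of their array in at least 3 of 18 arrays were tested with limma 3.58.1 in R 4.3.3, with 1 mean per group over all 18 arrays, an intensity trend, and Benjamini-Hochberg adjustment over all tested probe sets. All 68 members passed the filter; it could be passed through the acetone arrays alone. A call is an adjusted p under 0.05, and intervals are at 95%. The procedure was tested on data simulated with independent noise and with changes larger than most of the named calls. That test does not cover smaller changes or shifts of single arrays. Plots and array summaries used Python 3.11.15, pandas 2.3.3, numpy 2.4.6 and matplotlib 3.10.9.

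The members and gene lists were chosen with earlier results of these data known. Genes to be named were the 12 with the lowest mean difference, the 8 with the highest acetone signal, up to 4 called in each direction of each comparison, up to 4 of each list and the 3 nearest the threshold on each side, which took 16 of the 24 named members; the other 8 (AT1G56720, AT3G43960, AT3G62110, AT4G30020, AT5G02540, AT5G45950, AT5G62340 and P1R1) were added after their values were seen. The alternatives were an offset, quantile normalization, median centring, no filter, a replicate block, a filter at the median, no intensity trend, only the groups compared, and leaving out arrays. No 2 arrays held identical values.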

Additional observations from a re-analysis of the deposited data

Results flagged for a closer look

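In 3 named members the difference between CMP and fenclorim differed between the times by a test of that difference itself, with limma over all tested probe sets. The values are the log2 difference CMP minus fenclorim at 24 h less the same difference at 4 h. It was -1.81 ± 0.40 (SE, adjusted p = 0.0189) for AT3G06770, of the polygalacturonase-like family, where CMP minus fenclorim was 1.03 at 4 h and -0.77 at 24 h. It passed in 24 of 27 alternatives and was lost without fenclorim 4 h replicate 1 or replicate 2 and with only the compound arrays in the fit. For the pectate lyase gene AT5G63180 it was -1.69 ± 0.46 (SE, adjusted p = 0.0444), and it passed in 8 of 27 alternatives. For the transcription factor gene BZIP61 it was -1.50 ± 0.41 (SE, adjusted p = 0.0458), and it passed in 7 of 27. With 16 added to each signal BZIP61 gave -0.73, and the calls of AT5G63180 and BZIP61 were lost. The direction was the same in all alternatives of the 3 genes, and in each gene the highest adjusted p over the alternatives was 0.0659, 0.127 and 0.128 in that order.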

How the results depend on the processing

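Counts of called members moved with the processing. With 16 added to each signal, 29 probe sets met the member rule, and 5 members were called between the compounds at 4 h, 5 at 24 h, 4 between the times in fenclorim, 1 in the fenclorim effect and 5 in the change of CMP minus fenclorim. With no filter the last was 5 and fenclorim between times 6. The replicate numbers gave no steady pairing of the arrays. Over 45 pairs with the same number, deviations correlated from -0.507 to 0.485, and in 0 of 15 pairs of groups did all 3 pairs exceed 0.1. With 3 arrays a group, these values cannot exclude a partial pairing. With the replicate block the change of CMP minus fenclorim gave 4, and no other count moved by over 1.5 times. With only the groups compared, limma gave 0 at 4 h (16 at an unadjusted p under 0.05), 2 at 24 h, 0 in fenclorim between times (11), 21 in CMP between times, 9 in the CMP effect and 0 in the change of CMP minus fenclorim (20), in fits with fewer arrays. Median centring left 25 members by the rule. Leaving out fenclorim 4 h replicate 3, fenclorim 24 h replicate 2 and CMP 4 h replicate 2 together, chosen after seeing the data, gave 22 at 4 h, 25 at 24 h, 35 in fenclorim and 22 in CMP between times, 25 and 5 in the fenclorim and CMP effects and 30 in the change. Leaving out 1 array at a time gave 58 to 75 members by the rule, 2 to 19 calls at 4 h, 2 to 21 at 24 h, 0 in acetone between times, 2 to 19 in fenclorim, 3 to 17 in CMP, 0 to 7 and 1 to 2 in the effects, and 1 to 24 in the change. Beyond the fewer arrays in some fits, the cause was not tested. Of 459 values of 17 named calls under 27 alternatives each, 304 kept their side of the threshold, 155 did not, and 0 changed direction. Many of these alternatives left out an array of a group outside the comparison, which leaves the difference itself unchanged. For named calls the filters, the trend and the fits with fewer groups were added after seeing the data. Low signals limit all differences of members under the 40th percentile.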

Other observations

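Other gene lists matched by symbol give the setting of the members. Counts are from limma's test against acetone, on the deposited scaling only. Their order is fenclorim at 4 h, CMP at 4 h, fenclorim at 24 h and CMP at 24 h. Of 9 tested genes matched as brassinosteroid and gibberellin genes, 4, 3, 2 and 2 were lower and 2, 0, 1 and 1 higher. They include EXO84B, EXLA1, EXLA2 and EXLB1, genes of other families taken in by the letters EXO or EXL. Among the calls with fenclorim at 4 h were EXLA1 at -2.24, EXLA2 at -3.98 and EXO84B at 0.45. Of 6 cell cycle and chromatin genes, 4, 2, 3 and 3 were lower and none was higher. Among 5 auxin genes 3, 2, 2 and 2 were lower and 1, 1, 1 and 2 higher. Of 30 transcription factor genes other than BZIP61, 6, 6, 5 and 4 were lower and 6, 5, 7 and 7 higher. Of 3 class III peroxidases, 1, 0, 1 and 1 were lower and 1, 1, 1 and 2 higher, with PRX52 at 3.81 ± 0.37 and Prx37 at 2.09 ± 0.35 with CMP at 24 h (SE, adjusted p = 7.22e-07 and 0.000158 by limma). Of 3 genes matched as pectin enzymes, 2, 0, 1 and 1 were lower and none higher, with medians of -0.58, -0.26, -0.57 and -0.55, and 1 of the 3, PGL34, encodes a plastoglobulin. Of 4 mineral ion transporters 0, 1, 1 and 2 were lower and 0, 1, 2 and 1 higher. The symbols of ribosomal proteins matched 14 tested genes, all of the plastid genome, of which 0, 0, 8 and 2 were lower and none was higher. Of 4 genes matched as receptor-like kinases 2, 2, 3 and 3 were lower and none higher. Among these 4, PRK (AT1G32060) and CRK (AT4G01710) are not receptor-like kinases. PRK was among those called lower at 4 h, with -1.62 in fenclorim and -1.33 in CMP. The 1 gene matched for root hair growth, PRP39, known for pre-mRNA processing, was not called. The shares of all tested probe sets were 25.0%, 23.3%, 27.7% and 25.7% lower and 14.4%, 13.8%, 14.2% and 17.3% higher. These lists were matched by the shape of the symbol, so they can hold genes of other families and miss genes that the annotation does not name.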
